A study of Oryza sativa with 6 samples.

Results

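The 10 genes described here are WRKY transcription factors of rice that are known for responses to pathogens and other stresses, and their RNA was measured in flag leaves of an OsRUS1 overexpression line (OsRUS1-OX) and of the wild type (WT). They were chosen by their identifiers: OS05G0322900 (WRKY45), OS01G0750100 (WRKY13), OS05G0343400 (WRKY53), OS05G0474800 (WRKY70), OS02G0181300 (WRKY71), OS09G0417600 (WRKY76), OS09G0417800 (WRKY62), OS01G0826400 (WRKY24), OS02G0462800 (WRKY42) and OS06G0649000 (WRKY28). All 10 were found among the 91180 features of the count table, and 8 had enough reads for a filter on low counts that left 19694 features for testing. OsRUS1-OX and WT had 3 libraries each, every library made from flag leaves of 3 pooled plants grown in the field, at the heading stage and sampled at 11 am on a sunny summer day. Both genotypes share the ZhongHua11 background. OsRUS1-OX is 1 transgenic line carrying an OsRUS1-GFP overexpression construct. Its leaves were rolled in sunlight while WT leaves were expanded, so that genotype and leaf posture cannot be told apart in any difference given here.

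WRKY proteins bind the W-box, a short DNA element in the promoters of many defence genes, through a conserved domain that ends in a zinc finger. They act in layers: some are switched on by salicylic acid or by elicitors through MAP kinases and activate defence, while others repress the same promoters and restrain the response, and several also act in abscisic acid and gibberellin signalling or in leaf senescence. In rice, WRKY45 is a central activator of salicylic acid-dependent resistance to blast and bacterial blight, and WRKY62, WRKY76, WRKY28 and WRKY71 form the group IIa, whose members have been studied largely as repressors.

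Library totals were 13345227, 11918655 and 13532579 reads in OsRUS1-OX replicates 1, 2 and 3, against 8759812, 11744177 and 10815696 reads in WT replicates 1, 2 and 3. The gene OS04G0290800 on chromosome 4, which the study's table describes with vitamin B6 photo-protection, the process that RUS genes are tied to, served as the check of the labels. The sources used here do not pair this identifier with OsRUS1 by name, so the check assumes that it is the overexpressed gene. OS04G0290800 had 6270, 3412 and 6347 normalized counts in OsRUS1-OX, against 80.27, 125.9 and 107.8 in WT, a log2 fold change of 5.66 (SE 0.32, edgeR adjusted p = 0.00012). OsRUS1-OX replicate 2 had the lowest value of the 3 overexpression libraries. The 6 leaf photosynthesis markers had 557 to 340883 reads in every library, the root marker and the meristem marker had 0 reads in all 6 libraries, where 3 reads correspond to 0.222 to 0.342 CPM (reads scaled to the library total), and the 2 seed storage markers had 18 to 95 reads.

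By length-corrected mean level the 10 genes are given here as a high, a middle and a low set, with WRKY71 and WRKY76 overlapping in WT. On the length-corrected FPKM scale (read pairs relative to gene length and library size), WRKY13 had the highest mean in OsRUS1-OX, at 128 ± 5.80 FPKM (SD, n = 3), followed by WRKY53 at 100.3 ± 47.3, WRKY45 at 74.9 ± 41.2 and WRKY71 at 60.9 ± 11.9. In WT the order was WRKY53 at 104 ± 11.7 FPKM, WRKY45 at 89.0 ± 20.7, WRKY13 at 86.2 ± 30.01 and WRKY71 at 26.1 ± 8.64 (SD, n = 3). The ranges of neighbours within these 4 overlapped in OsRUS1-OX, and in WT only WRKY13 and WRKY71 were separate. Their mean FPKM exceeded that of 89.0% to 95.5% of tested features in OsRUS1-OX, and of 74.1% to 94.3% in WT. The place of WRKY71 depends on the gene length behind its FPKM. That length, implied by its counts and FPKM, was 536 bases, the shortest of the 10, against 1151 for WRKY45 and 1313 for WRKY76. Before length correction WRKY71 averaged 166 normalized counts in WT, under the 193 of WRKY76. In OsRUS1-OX these means were 373 and 183. Whether 536 bases cover the whole gene was not tested.

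WRKY76 lay in the middle of the features tested, at 12.2 ± 7.34 FPKM in OsRUS1-OX and 12.3 ± 8.17 FPKM in WT. Its range was separate from that of WRKY71 in OsRUS1-OX and overlapped it in WT. Its lowest library stood above the highest WRKY24 library in OsRUS1-OX, but not in WT. WRKY24 averaged 2.57 ± 3.01 FPKM in OsRUS1-OX and 4.27 ± 3.19 FPKM in WT, and WRKY62 averaged 2.44 ± 2.57 FPKM in OsRUS1-OX and 1.68 ± 0.167 FPKM in WT. The remaining 3 genes had at most 52 reads in any library. Mean FPKM in OsRUS1-OX and WT was 0.328 and 0.975 for WRKY70, 0.558 and 0.595 for WRKY28, and 0.466 and 0.387 for WRKY42. The range of WRKY62 was separate from that of the next gene, WRKY28, in OsRUS1-OX, whereas in WT WRKY62 and WRKY70 overlapped, and the 3 lowest genes could not be ordered within either genotype.

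**Figure D1:**
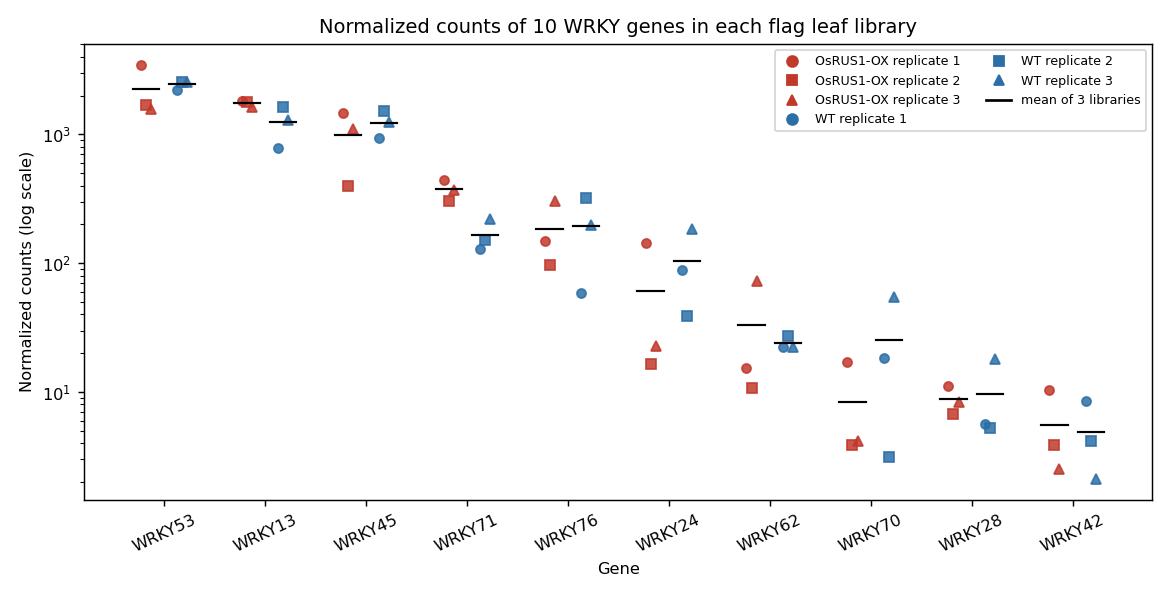
Normalized counts of the 10 WRKY genes (y axis, log scale; counts divided by the effective library size, with TMM scaling) in each flag leaf library, OsRUS1-OX in red on the left and WT in blue on the right of each gene, with the mean of 3 libraries as a black bar. Counts are not corrected for gene length, so heights compare libraries and not genes. WRKY71 is the gene whose OsRUS1-OX libraries, at 302.9 to 444.9, lie clearly above its WT libraries, at 129.6 to 219.9.

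Set against WT, OsRUS1-OX leaves had more RNA of 1 of the 8 tested genes, WRKY71, and no gene of the 8 was called lower. A gene was called where edgeR's quasi-likelihood p, adjusted by Benjamini and Hochberg's method across the 19694 features, was under 0.05. By this rule 23.6% of all tested features were called, 11.8% higher and 11.8% lower in OsRUS1-OX, so that 1 call among 8 genes is not above the background. At an unadjusted p under 0.05 the count was 1 higher and 0 lower, beside 7175 of the 19694 tested features in either direction. DESeq2 and limma on FPKM also called 1 higher and 0 lower. The log2 fold change was above 0 for 3 genes and below 0 for 5, with a median of -0.10 over the 8, beside -0.01 over all tested features. Normalized counts of the genotypes did not overlap for 2 of the 8, WRKY71 and WRKY13, against 42.5% of all tested features. Because flag leaf RNA is a mixture, fewer cells that express a gene and less RNA per cell cannot be told apart in any of these values.

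WRKY71 (OS02G0181300, chromosome 2) is a group IIa factor first studied as a repressor of gibberellin-induced genes in the aleurone and later in defence and cold responses. It had 444.9, 302.9 and 371.9 normalized counts in OsRUS1-OX replicates 1, 2 and 3, against 129.6, 150.0 and 219.9 in WT replicates 1, 2 and 3. Every OsRUS1-OX library stood above every WT library, with WT replicate 3 the nearest from below. The means were 373 ± 71.1 in OsRUS1-OX and 166 ± 47.3 in WT (SD, n = 3 each), a 2.23-fold difference and a log2 fold change of 1.16 (SE 0.23, 95% interval 0.63 to 1.69, edgeR adjusted p = 0.0097). It passed the threshold under all 15 alternatives run, with log2 fold changes of 1.01 to 1.41 and adjusted p of 0.00011 to 0.037. This includes the 6 fits that left out 1 library each.

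WRKY13 (OS01G0750100, chromosome 1) is a regulator of resistance to blast and bacterial blight that links the salicylic acid and jasmonate pathways. It had 1814, 1792 and 1645 normalized counts in OsRUS1-OX, against 783.0, 1645 and 1282 in WT. The overexpression libraries lay close together and the WT libraries were spread wide, with OsRUS1-OX replicate 3 and WT replicate 2 equal to 4 digits at the border between the genotypes. Means were 1750 ± 91.8 in OsRUS1-OX and 1237 ± 433 in WT, and the log2 fold change of 0.50 (SE 0.24, 95% interval -0.06 to 1.06) did not pass the edgeR threshold (adjusted p = 0.18). Without WT replicate 2 the log2 fold change was 0.76 and the adjusted p was 0.039 by the same test, and this was the only one of the 15 alternatives that called the gene. Without WT replicate 1 the log2 fold change was 0.25.

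**Figure D2:**
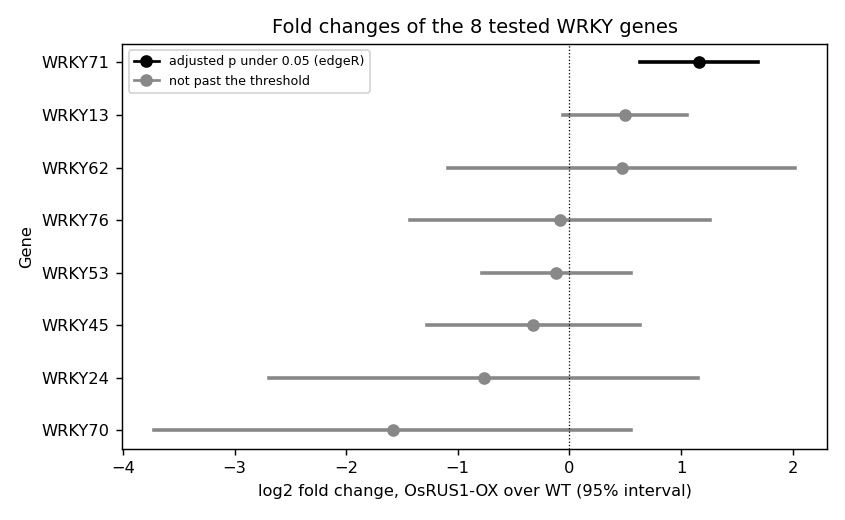
Log2 fold change of OsRUS1-OX over WT (x axis) with its 95% interval for the 8 WRKY genes tested by edgeR (y axis), black where the adjusted p is under 0.05 and grey otherwise. The interval of WRKY71, 0.63 to 1.69, lies above 0, and the other 7 intervals include 0, the widest being that of WRKY70 at -3.72 to 0.55.

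WRKY45 and WRKY53, the other abundant activators of defence, gave no call. WRKY45 (OS05G0322900, chromosome 5) had 1453, 395.1 and 1103 normalized counts in OsRUS1-OX, against 939.4, 1510 and 1241 in WT. OsRUS1-OX replicate 2 was the lowest of the 6 libraries by a wide margin, and the other two overexpression libraries fell inside the WT range. The log2 fold change was -0.32 (SE 0.41, 95% interval -1.28 to 0.63, edgeR adjusted p = 0.62). Without OsRUS1-OX replicate 2 it was 0.06.

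WRKY53 (OS05G0343400, chromosome 5), a group I factor that MAP kinases phosphorylate and that acts in defence and in the response to chewing insects, had 3474, 1702 and 1580 normalized counts in OsRUS1-OX, against 2211, 2543 and 2570 in WT. OsRUS1-OX replicate 1 was the highest of the 6 libraries, and OsRUS1-OX replicates 2 and 3 lay below every WT library. The log2 fold change was -0.12 (SE 0.29, 95% interval -0.78 to 0.55, edgeR adjusted p = 0.81). Without OsRUS1-OX replicate 1 it was -0.55 and passed the threshold (edgeR adjusted p = 0.039).

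WRKY24 (OS01G0826400, chromosome 1) and WRKY70 (OS05G0474800, chromosome 5) belong to group I with WRKY53, and the 3 have been studied together in abscisic acid and gibberellin signalling. WRKY24 had 142.3, 16.50 and 22.62 normalized counts in OsRUS1-OX, against 88.72, 38.81 and 182.9 in WT. WRKY70 had 17.15, 3.883 and 4.188 in OsRUS1-OX, against 18.31, 3.147 and 54.96 in WT. For both genes OsRUS1-OX replicate 1 was well above the other overexpression libraries, WT replicate 3 was the highest of all 6 libraries, WT replicate 2 was the lowest WT library, and the genotypes overlapped. The log2 fold changes were -0.77 (SE 0.83, 95% interval -2.69 to 1.15, edgeR adjusted p = 0.55) for WRKY24 and -1.58 (SE 0.92, 95% interval -3.72 to 0.55, edgeR adjusted p = 0.26) for WRKY70. Without OsRUS1-OX replicate 1 they were -2.38 for WRKY24, past the threshold (edgeR adjusted p = 0.045), and -2.61 for WRKY70, not past it. Without WT replicate 3 they were -0.05 for WRKY24 and -0.25 for WRKY70. The reads behind WRKY70 were few, at 20, 4 and 5 in OsRUS1-OX and 13, 3 and 52 in WT.

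WRKY76 (OS09G0417600) and WRKY62 (OS09G0417800) lie on chromosome 9 and are group IIa factors known to restrain blast and bacterial blight resistance, and in the RefSeq annotation ASM3414082v1 no other gene starts between them. WRKY76 had 148.3, 97.07 and 304.9 normalized counts in OsRUS1-OX, against 59.15, 322.0 and 198.7 in WT. WRKY62 had 15.43, 10.68 and 72.88 in OsRUS1-OX, against 22.53, 27.27 and 22.20 in WT. OsRUS1-OX replicate 3 was the highest overexpression library and WT replicate 2 the highest WT library for both, and the WT values of WRKY62 lay between those of OsRUS1-OX replicates 1 and 3. The log2 fold change of WRKY76 was -0.08 (SE 0.58, 95% interval -1.43 to 1.26, edgeR adjusted p = 0.94). That of WRKY62 was 0.47 (SE 0.67, 95% interval -1.09 to 2.03, edgeR adjusted p = 0.67), and -0.87 without OsRUS1-OX replicate 3.

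WRKY42 (OS02G0462800, chromosome 2), a factor tied to leaf senescence, and WRKY28 (OS06G0649000, chromosome 6), the remaining group IIa factor, did not pass the filter. WRKY42 had 12, 4 and 3 reads in OsRUS1-OX, against 6, 4 and 2 in WT. WRKY28 had 13, 7 and 10 reads in OsRUS1-OX, against 4, 5 and 17 in WT. The genotypes overlapped for both genes. In the fit without the filter the log2 fold changes were 0.27 for WRKY42 (SE 0.73, edgeR adjusted p = 0.85) and -0.13 for WRKY28 (SE 0.56, edgeR adjusted p = 0.92). The 95% intervals were -1.30 to 1.84 for WRKY42 and -1.34 to 1.09 for WRKY28. At this depth neither a rise nor a fall of the size seen for WRKY71 (1.16) could be told from no change for WRKY42. For WRKY28 the same held for a fall, while the upper bound of its interval lay just under 1.16.

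A wide spread between replicates was the trait that most of these genes shared in OsRUS1-OX. In OsRUS1-OX the SD of the log2 normalized count across 3 libraries was 1.66 for WRKY24, 1.44 for WRKY62, 1.13 for WRKY70, 0.99 for WRKY45, 0.83 for WRKY76 and 0.63 for WRKY53, against a median of 0.169 over all tested features. These 6 of the 8 tested genes were above the 90th percentile of that SD, and WRKY24 exceeded 99.7% of features. The percentiles were not matched for read number, and few reads widen this SD. Counting noise alone would give 0.46 for WRKY70, 0.23 for WRKY62 and 0.17 for WRKY24. It would give 0.10 for WRKY76, 0.04 for WRKY45 and 0.03 for WRKY53. WRKY71, with an SD of 0.28, stood at the 71.8th percentile, and WRKY13, with 0.08, at the 17.7th.

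In WT the SD was 1.98 for WRKY70, 1.25 for WRKY76 and 1.11 for WRKY24, and these 3 of the 8 genes were above the 90th percentile, while the median over all tested features was 0.266. WRKY53 and WRKY62, among the widest in OsRUS1-OX, had WT values of 0.12 and 0.16, under the median, and WRKY13 showed the opposite, with 0.54 in WT. Counting noise alone would give 0.03 for WRKY53 and 0.31 for WRKY62 in WT. The WT value of WRKY62 was under its counting noise, so its reads were too few to show a narrow spread. The highest library exceeded the lowest of the same genotype 8.62-fold for WRKY24, 6.83-fold for WRKY62, 4.42-fold for WRKY70 and 3.68-fold for WRKY45 in OsRUS1-OX, and 17.5-fold for WRKY70 and 5.44-fold for WRKY76 in WT.

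**Figure D3:**
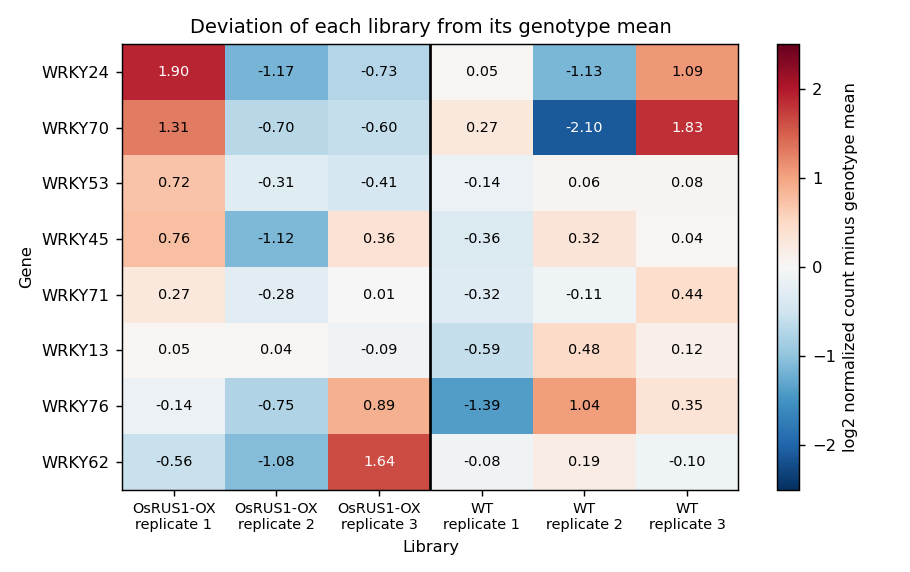
Log2 normalized count of each library (columns, OsRUS1-OX left and WT right of the black line) minus the mean of its genotype, for the 8 tested WRKY genes (rows), red above and blue below the mean. WRKY24 and WRKY70 are both high in OsRUS1-OX replicate 1 (1.90 and 1.31) and in WT replicate 3 (1.09 and 1.83), and WRKY76 and WRKY62 are both high in OsRUS1-OX replicate 3 (0.89 and 1.64).

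The deviations were shared between some of the genes and not between others. OsRUS1-OX replicate 1 was the highest overexpression library for 6 of the 8 tested genes, namely WRKY45, WRKY13, WRKY53, WRKY70, WRKY71 and WRKY24, and it was the highest for 37.4% of all tested features. OsRUS1-OX replicate 2 was the lowest overexpression library for 6 of the 8, and for 36.8% of all tested features. It was also the overexpression library with the lowest OS04G0290800 value, and the part of this in the members' spread was not tested. In WT, replicate 1 was the lowest library for 5 of the 8 genes, against 30.8% of all tested features, and the highest was replicate 2 for WRKY45, WRKY13, WRKY76 and WRKY62 and replicate 3 for the other 4. WT replicate 1 was also the library with the fewest reads.

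For each tested gene, the WRKY gene with the most similar profile was taken as the one with the highest Pearson correlation of log2 normalized counts over the 6 libraries, out of 15 candidates. The 6 points are shared by all pairs and the partner was picked for its correlation, so these values are a description. The candidates included 8 further WRKY genes from the study's tables, which list genes that differed in these samples. All 8 were called between the genotypes, so the nearness of WRKY71, itself called, to 1 of them is no independent evidence. WRKY24 and WRKY70 were nearest to each other (r = 0.91, Spearman's rho = 0.77), the nearest to WRKY53 was WRKY24 (r = 0.81, rho = 0.83), and the nearest to WRKY45 was WRKY53 (r = 0.65, rho = 0.66). The remaining pair of group I genes, WRKY53 and WRKY70, was less alike (r = 0.53, rho = 0.37, and 0.48 within genotypes), below WRKY45 with WRKY53. After each library was set against its genotype mean, r was 0.89 for WRKY24 with WRKY70, 0.80 for WRKY24 with WRKY53 and 0.61 for WRKY53 with WRKY45. Without the 2 libraries farthest from the median, r was 0.89 or 0.97 for WRKY24 with WRKY70, depending on which of them set the median, 0.74 for WRKY53 with WRKY24 and 0.70 for WRKY45 with WRKY53.

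The neighbours WRKY76 and WRKY62 were each other's nearest gene, with r = 0.60 and rho = 0.60, and r = 0.60 within genotypes. Without the 2 libraries farthest from the WRKY76 median r was 0.96, and without those farthest from the WRKY62 median it was 0.30. WRKY13 was almost as near to WRKY76 (r = 0.59) and nearer within genotypes (r = 0.76), and WRKY45 was nearer to it by rank (rho = 0.71), so that WRKY76 had no single nearest gene across these measures. WRKY13 was nearest to WRKY71 (r = 0.72, rho = 0.89), and r was 0.57 without the 2 farthest libraries and 0.36 within genotypes. WRKY71 was nearest to OS08G0499300, which the study annotates as WRKY30 (r = 0.74, rho = 0.54, and 0.80 without the 2 farthest libraries), but within genotypes r was -0.91, so that this likeness came from the difference between genotypes. Within genotypes WRKY71 followed WRKY24 most closely among the other tested members (r = 0.74). Not all members moved together. Within genotypes WRKY62 had r of 0.60 with WRKY76, 0.48 with WRKY45, 0.10 with WRKY71 and -0.05 with WRKY13. Its r was -0.23 with WRKY24, -0.24 with WRKY70 and -0.40 with WRKY53.

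**Figure D4:**
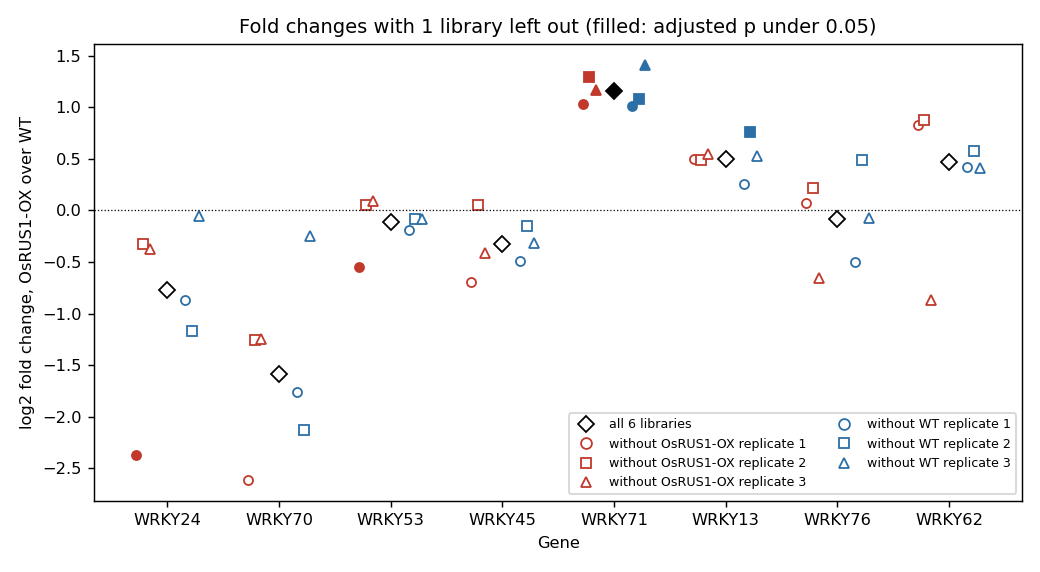
Log2 fold change of OsRUS1-OX over WT (y axis) for the 8 tested WRKY genes (x axis), with all 6 libraries (black diamonds) and with 1 library left out (red for OsRUS1-OX left out, left of the diamond, and blue for WT, right of it), filled where the edgeR adjusted p is under 0.05. WRKY71 is filled throughout, from 1.01 to 1.41, while the values of WRKY24 run from -2.38 to -0.05 and those of WRKY62 from -0.87 to 0.88.

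Other WRKY genes give the family context. The study's tables annotate 9 further WRKY genes, and since those tables list the genes that differed in these samples, the count below is no independent evidence of a direction. Of the 9, 8 were tested, 3 rose and 5 fell. The largest increase was that of OS08G0499300 (WRKY30), with 38.58, 126.2 and 59.47 normalized counts in OsRUS1-OX against 7.042, 5.244 and 3.171 in WT (log2 fold change 3.86, SE 0.58, edgeR adjusted p = 0.0032). OS01G0624700 (WRKY12) and OS01G0734000 (WRKY23) rose by log2 fold changes of 2.72 and 2.58. WT replicates 1, 2 and 3 had only 5, 5 and 3 reads of WRKY30, 9, 3 and 3 of WRKY12, and 10, 6 and 5 of WRKY23. None of the 3 was left to test when 10 reads were required in every library. Among the 8 tested genes the largest decreases were those of OS06G0146250 (WRKY73), with 82.30, 78.62 and 112.2 normalized counts in OsRUS1-OX against 250.7, 268.5 and 271.6 in WT (log2 fold change -1.53, SE 0.17, edgeR adjusted p = 0.0012), and of OS03G0758000, OS01G0289600 (WRKY9) and OS07G0111400 (WRKY29), at -1.33, -1.22 and -1.14. The gene removed by the filter, OS03G0335200 (WRKY79), had 1, 1 and 2 reads in OsRUS1-OX against 10, 4 and 14 in WT, with a log2 fold change of -3.05 (SE 0.75, edgeR adjusted p = 0.015) in the fit without the filter, and 6 of the 9 were then called lower, as they were by DESeq2. The change of WRKY71 was smaller on the log2 scale than those of the 3 annotated genes that rose. Those 3 genes were listed because they differed in these samples and had few reads in WT, so this gives WRKY71 no rank within the family.

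The pathways in which these factors act were examined through 3 lists. Salicylic acid reaches WRKY45 in rice along a branch separate from that of NPR1-type co-activators, and pathogenesis-related (PR) proteins are among the products of the pathway. Of 7 genes of salicylic acid signalling and PR proteins, 5 were tested, and 0 rose and 1 fell by edgeR. At an unadjusted p under 0.05, 1 was higher and 1 lower. DESeq2, which took in all 7, called 1 higher and 1 lower. Of all 19694 tested features, 23.6% were called by edgeR and 7175 had an unadjusted p under 0.05, so these counts do not set the list apart. The gene that fell was OS01G0194300, which the study describes as NPR1/NIM1-like, with 204.9, 154.3 and 243.8 normalized counts in OsRUS1-OX against 371.8, 411.2 and 286.4 in WT (log2 fold change -0.82, SE 0.21, edgeR adjusted p = 0.024). No library of the overexpression line reached the lowest WT library, and 42.5% of all tested features were separate in this way in either direction. The call was lost in 4 of the 6 fits that left out a library, those without OsRUS1-OX replicate 1 or 2 and without WT replicate 1 or 2. It was also lost in limma on log2(FPKM + 1) without a filter and with the replicate block, where the list had 1 gene called higher and 0 lower. Besides DESeq2 and the block, 1 gene of the list was called higher with library totals alone, without the filter, and without WT replicate 1 or WT replicate 2. OS12G0555500 was just short of the threshold (edgeR adjusted p = 0.051), with 300.9, 210.6 and 166.7 normalized counts in OsRUS1-OX against 126.7, 28.32 and 88.79 in WT.

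Elicitor receptors and the MAP kinase cascade lie upstream of WRKY53 and WRKY45. All 8 genes of that list were tested, 1 rose and 0 fell by edgeR, with 3 higher and 0 lower at an unadjusted p under 0.05 and 1 higher and 0 lower by DESeq2. The log2 fold change was above 0 for 7 of the 8, with a median of 0.35, beside 9658 of 19694 tested features above 0 and a median of -0.01 over them. The 1 call among 8 stands beside 23.6% of all tested features called in either direction. The 3 at an unadjusted p under 0.05 stand beside 7175 of the 19694 tested features, so neither count sets this list apart. The gene that rose was OS01G0229400, annotated by the study as OsRac1, a small GTPase of immune receptor complexes, with 94.30, 70.86 and 61.99 normalized counts in OsRUS1-OX against 28.17, 20.98 and 19.03 in WT (log2 fold change 1.75, SE 0.27, edgeR adjusted p = 0.0040). Every overexpression library stood above every WT library, and 42.5% of all tested features were separate in either direction.

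Enzymes of diterpenoid phytoalexin synthesis, the antimicrobial compounds whose genes WRKY76 and WRKY28 are known to restrain, were nearly silent in these leaves. None of the 8 genes passed the filter, and 7 of them had at most 13 reads in every library. The remaining one, OS02G0571100, singled out after its values were seen, had 68, 2 and 1 reads in OsRUS1-OX and 0 in each WT library. Its reads came almost wholly from OsRUS1-OX replicate 1. That library was the highest overexpression library for 6 of the 8 tested WRKY genes and for 37.4% of all tested features. Of the group IIa genes, WRKY71 and WRKY28 were highest there, WRKY28 on 13 reads, while WRKY76 and WRKY62 were highest in OsRUS1-OX replicate 3.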

How the data were processed

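RNA-seq was analysed for 6 rice flag leaf libraries, 3 per genotype, each of 3 pooled plants. The authors aligned read pairs with TopHat2 2.0.12 and counted reads per gene with HTSeq 0.6.1. The deposited counts are whole numbers and were not normalized. The deposited FPKM equals these counts divided by library total and 1 length per gene, as the authors scaled them. How HTSeq treated strand and overlapping genes is not given in the sources used here, so reads of an overlapping or antisense gene cannot be told apart from those of a member. The table's 6 columns were matched to samples by title, and 0 per-sample columns were unused.

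The test was the quasi-likelihood test of edgeR 4.0.16 under R 4.3.3, with genotype as the only term, TMM scaling and filterByExpr's default removal of low features. Adjusted p-values are Benjamini-Hochberg values over all 19694 tested features, called under 0.05. SDs and correlations used log2 normalized counts with 0.5 added. The alternatives were DESeq2 1.42.0, other scalings and filters, limma 3.58.1 on log2 FPKM with a pseudocount of 1 or 0.1 and at least 1 FPKM in 3 libraries, the replicate number as a block, and fits without each of the 6 libraries. The code was checked on simulated counts. With 3 libraries against 3, an exact permutation test cannot go below p = 0.1, so none is given. Libraries of 1 genotype differed by more than counting noise and all were kept as replicates. Floors of 3 reads cover counting error only.

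The members and lists were chosen with earlier results of these data known. The rule named all 10 members, the called genes of the 3 pathway lists, the WRKY gene nearest to each member, and, of the other WRKY genes, the 4 largest increases and the 4 largest decreases among calls whose genotypes did not overlap and whose higher genotype had 10 reads or more throughout. Other WRKY genes were to be found through RefSeq descriptions. The RefSeq table of ASM3414082v1 pairs no identifiers of the count table and matched 4 of the 10 member names, so the 9 genes that the study's tables annotate as WRKY were used in their place. Gene names without such an annotation are not given.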

Additional observations from a re-analysis of the deposited data

How the results depend on the processing

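WRKY71 kept its direction and its call under all 15 alternatives. The number of the 10 genes called higher was 1, and 1 to 2 with 1 library left out, reaching 2 without WT replicate 2. The number called lower was 0, and 0 to 2 with 1 library left out, reaching 2 without OsRUS1-OX replicate 1 (WRKY53 and WRKY24). Of the other WRKY genes, 3 were called higher, and 0 with at least 10 counts in every library, which leaves fewer genes to test. With 1 library left out the count was 2 to 3. Of them 5 were called lower, 3 by limma on log2(FPKM + 1) without a filter, and 3 to 6 with 1 library left out, with 3 without OsRUS1-OX replicate 2, OsRUS1-OX replicate 3 or WT replicate 1. The causes were not tested.

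Directions changed for 5 genes that were not called. The log2 fold change of WRKY76, -0.08, was 0.11 by limma on log2(FPKM + 1) with and without a filter, 0.14 on log2(FPKM + 0.1), and -0.66 to 0.49 with 1 library left out. Leaving out 1 library gave -0.69 to 0.057 for WRKY45, -0.55 to 0.088 for WRKY53 and -0.87 to 0.88 for WRKY62. WRKY28 was at 0.0013 by limma without a filter. Over all features 4644 were called, 2399 without OsRUS1-OX replicate 3 and 2524 without OsRUS1-OX replicate 2.

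With the replicate block WRKY71 was at 1.17 (edgeR adjusted p = 0.015), WRKY76 at 0.052, and 4013 features were called, against 4644 without it. Deviations of same-numbered libraries correlated weakly, at 0.12, -0.08 and 0.11. OsRUS1-OX replicates 1 and 3 correlated best with the WT library of the same number, and OsRUS1-OX replicate 2 with WT replicate 3 (0.16). Values this weak cannot decide whether same-numbered libraries share a collection, so the main fit has no block. WRKY28 and WRKY42 had at most 17 reads in any library, and WRKY70 had few reads and a wide spread between libraries.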
